A study of Mus musculus with 2 samples.

Results

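The 7 crystallin-named genes Cryaa, Cryab, Cryba1, Crybb2, Crygs, Crygd and Crym were followed in single-cell RNA libraries of cells recovered from the mouse vitreous. They were taken by symbol from 31053 genes in the deposited tables, and each matched 1 entry in both libraries. The mice were C57BL/6, all had received zymosan inside the eye, and they were treated with an antiserum labelled aCXCR2 or with one labelled NRS. Cells came from vitreous fluid together with a retina rinse, Ly6G magnetic beads were used to purify them, and libraries were made with the 10x 3' kit. Each group was 1 library, so nothing below has a replicate, no test was possible, and every 95% interval covers counting error only. The number, age and pooling of the mice are not given in the sources used here.

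Crystallins are the abundant soluble proteins of the eye lens. The alpha-crystallins, Cryaa and Cryab, are small heat shock proteins that act as chaperones, and Cryab is also made in glia, muscle and other stressed tissues. The beta- and gamma-crystallins are structural proteins of the lens fibre cell, which loses its nucleus as it matures. Crym, mu-crystallin, is unrelated to them by sequence: it is a ketimine reductase that binds thyroid hormone and is expressed in retina and brain.

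A unique molecular identifier (UMI) marks 1 captured RNA molecule, and levels are given as CPM, a gene's UMIs scaled to the same total in every pool. The kit reads 3' ends, so gene length does not enter. A barcode was kept as a cell if it had 500 or more UMIs, 200 or more genes and no more than 10% mitochondrial UMIs. That left 4826 of 5551 barcodes in the aCXCR2 library, with a median of 10383.5 UMIs, and 5655 of 7314 in the NRS library, with a median of 4759. In total, 101 barcode sequences occurred in both libraries. For 82 of them the aCXCR2 barcode held 0.727% to 1.17% of the UMIs of its NRS counterpart, and for 5 the NRS barcode held 0.582% to 1.01% of its aCXCR2 counterpart. Of these shallow copies 43 passed the filter in the aCXCR2 library, where they held 16 of 471 Cryab UMIs, 8 of 415 Crym UMIs and 2 UMIs each of Cryaa and Crybb2, and 4 passed in the NRS library with 1 Crym UMI between them. How the copies arose was not tested. Members were recomputed without them over all kept cells, and Cryab and Crym also in some clusters described below. Barcodes that failed the filter were not recomputed without them.

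The genes lie on 7 chromosomes. In the GENCODE annotation of GRCm38, all 7 are protein-coding: Cryaa at chr17:31677807-31681733 and Cryab at chr9:50751325-50756636 on the plus strand, and Cryba1 at chr11:77718615-77725283, Crybb2 at chr5:113058258-113070117, Crygs at chr16:22805203-22811577, Crygd at chr1:65061872-65063452 and Crym at chr7:120186380-120202111 on the minus strand. Exons of Cryab overlap those of Hspb2 and exons of Cryaa overlap AC090881.2, each on the opposite strand, and the sources used here do not say whether counting used strand. Hspb2 had only 3 UMIs in the aCXCR2 library and 18 in the NRS library. No 50-base window in the last 300 bases of any member's longest transcript occurred in another gene's transcripts. Crygs and Crygd could thus be told apart from other genes there. The gamma-crystallin genes outside the members were not searched in this way.

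Promoters of an alpha- and 2 gamma-crystallins are shown because Crygs and Crygd, though both named gamma, parted company in the lens-type barcodes described below. Each runs from 250 bases before to 50 bases after the RefSeq start on GRCm38.p6: Cryaa chr17:31677681-31677980 on the plus strand, Crygs chr16:22811361-22811660 and Crygd chr1:65063391-65063690 on the minus strand. Capitals mark TGCTGA, which is part of the recognition element of the lens factor Maf, or its reverse complement TCAGCA, and the TATA box letters TATAAA.
Cryaa: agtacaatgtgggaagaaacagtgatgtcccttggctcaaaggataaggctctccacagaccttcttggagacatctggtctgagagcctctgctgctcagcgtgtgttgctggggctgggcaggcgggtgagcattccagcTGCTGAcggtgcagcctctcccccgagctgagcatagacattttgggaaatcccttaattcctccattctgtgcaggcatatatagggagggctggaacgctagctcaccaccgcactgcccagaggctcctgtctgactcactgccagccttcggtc
Crygs: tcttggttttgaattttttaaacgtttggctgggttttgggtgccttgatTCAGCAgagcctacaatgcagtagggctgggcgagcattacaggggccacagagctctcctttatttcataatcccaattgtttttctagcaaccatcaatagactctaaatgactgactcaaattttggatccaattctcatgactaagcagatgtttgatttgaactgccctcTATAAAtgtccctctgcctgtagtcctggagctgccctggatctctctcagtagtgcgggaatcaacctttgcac
Crygd: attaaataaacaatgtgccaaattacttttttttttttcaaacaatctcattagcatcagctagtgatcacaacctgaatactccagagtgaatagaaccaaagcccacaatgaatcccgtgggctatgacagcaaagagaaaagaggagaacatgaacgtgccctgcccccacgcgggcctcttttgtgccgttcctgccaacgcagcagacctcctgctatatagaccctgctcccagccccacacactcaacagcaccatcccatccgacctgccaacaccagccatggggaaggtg
TGCTGA began 108 bases before the start in Cryaa and 200 bases before it, in reverse complement, in Crygs, and it also lay 57 bases before the start of Cryba1. TATAAA began 25 bases before the start of Crygs and 23 bases before that of Cryba1. Neither the Crygd nor the Crybb2 window held any of the 3 motifs searched, and the heat shock core GAANNTTC was in none of the 5 member promoters in the table. Crygb and Crygc went with Crygd in those barcodes. The Crygc window held TGCTGA 229 bases before the start, and the Crygb window held none of the motifs. Whether the motifs bear on the split of Crygs and Crygd was not tested. Of all 32851 RefSeq promoters, 19.5% held TGCTGA on either strand, 13.6% TATAAA and 7.86% GAANNTTC. Cryab and Crym were not in the table.

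All 7 members were lower in the aCXCR2 library than in the NRS library over all kept cells, by 10.9-fold for Cryab to 39.8-fold for Cryaa. Among the alpha-crystallins, Cryaa stood at 0.623 CPM (0.464 to 0.820) in the aCXCR2 library and 24.8 CPM (23.4 to 26.2) in the NRS library, a log2 ratio of -5.31 (-5.75 to -4.91). Cryab stood at 5.76 CPM (5.25 to 6.30) in the aCXCR2 library and 62.6 CPM (60.4 to 64.9) in the NRS library, a log2 ratio of -3.44 (-3.59 to -3.30). The beta-crystallins, which assemble into oligomers in the lens, lay far apart within the NRS library. Cryba1 was at 0.403 CPM in the aCXCR2 library and 11.0 CPM in the NRS library (log2 ratio -4.76), and Crybb2 at 1.75 CPM in the aCXCR2 library and 57.0 CPM in the NRS library (log2 ratio -5.03). The gamma-crystallins are monomers packed densely in fibre cells. Crygs was at 0.464 CPM in the aCXCR2 library and 17.3 CPM in the NRS library (log2 ratio -5.22), and Crygd at 0.966 CPM in the aCXCR2 library and 15.6 CPM in the NRS library (log2 ratio -4.02). Crym was at 5.07 CPM in the aCXCR2 library and 68.8 CPM in the NRS library (log2 ratio -3.76).

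The order of levels was not the same in both libraries. In the aCXCR2 library Cryab and Crym led, with counting intervals that overlapped, followed by Crybb2, Crygd, Cryaa, Crygs and Cryba1. Each of these after Crybb2 overlapped its neighbour. In the NRS library Crym came first, then Cryab, Crybb2, Cryaa, Crygs, Crygd and Cryba1, and only Crygs and Crygd were neighbours with overlapping intervals. At least a 2-fold lower level was found for 7 of 7 members, against 16.9% of all genes with 10 CPM or more in 1 library. A 2-fold higher level was found for 0 members and for 3.78% of those genes. The median log2 ratio was -4.76 over the members and -0.38 over all those genes. Scaling by TMM or by the median of ratios would raise every log2 ratio by 0.53 or 0.59, and no member changed direction. Without the shallow copies the log2 ratio was -5.37 for Cryaa and -3.49 for Cryab. Without every barcode sequence present in both libraries, that of Cryab was -2.93.

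**Figure D1:**
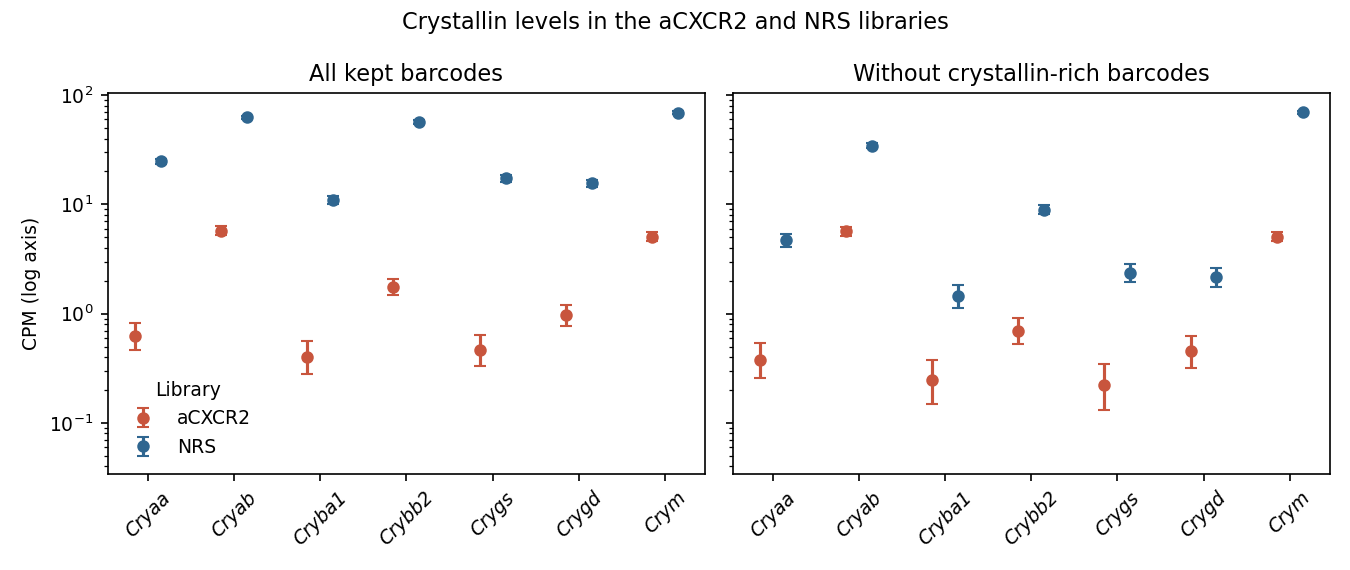
Level of each member in CPM (log axis) in the aCXCR2 and NRS libraries, over all kept barcodes at left and without crystallin-rich barcodes at right. Points are library totals and bars 95% counting intervals. All 7 aCXCR2 points lie below their NRS points in both panels, and the gap of every member except Crym narrows at right.

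Of the 17 other crystallin-named genes, 10 reached 10 CPM, 6 of these were at least 2-fold lower in the aCXCR2 library and none was at least 2-fold higher. The lens beta- and gamma-crystallins were all lower in the aCXCR2 library, by differing amounts. Cryba2 was at 0.257 CPM in the aCXCR2 library and 10.9 CPM in the NRS library, and Crygb at 1.52 CPM in the aCXCR2 library and 30.4 CPM in the NRS library. Cryba4, Cryga and Crygf were only 4.22-fold, 6.88-fold and 6.31-fold lower, less than any member. Crygn, also gamma by name, was not lower, at 0.379 CPM in the aCXCR2 library and 0.336 CPM in the NRS library. Genes that share little but the name varied: Cryzl2 was at 8.09 CPM in the aCXCR2 library and 20.1 CPM in the NRS library, 2.48-fold lower, and is 1 of the 6 counted as lower. The quinone oxidoreductase-like Cryzl1 was at 44.3 CPM in the aCXCR2 library and 60.1 CPM in the NRS library. Crybg1 and Cryl1 went the other way, by less than 2-fold. Crybg1 was at 14.7 CPM in the aCXCR2 library and 7.97 CPM in the NRS library, and Cryl1 at 11.8 and 7.13 CPM in the same order. Of 7 small heat shock genes, 2 reached 10 CPM and 1 was lower: Hspb6 was at 6.93 CPM in the aCXCR2 library and 47.7 CPM in the NRS library. None of the 14 lens markers outside the crystallin family reached 10 CPM, and together they summed to 1.55 CPM in the aCXCR2 library and 11.7 CPM in the NRS library. Of 10 lens regulators 2 reached 10 CPM. Maf was higher, at 230 CPM in the aCXCR2 library and 115 CPM in the NRS library, and Tdrd7 lower, at 28.0 CPM in the aCXCR2 library and 75.7 CPM in the NRS library. Maf is also a macrophage gene. All 17 rod photoreceptor markers were at least 2-fold lower as well, summing to 1663 CPM in the aCXCR2 library and 14764 CPM in the NRS library. Fewer lens and retina cells in a library and less RNA per cell cannot be told apart in these sums.

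The UMIs of the lens members sat in very few barcodes. In the NRS library a single barcode held 46.1% of all Cryba1 UMIs in kept cells, 32.3% of Cryaa, 28.5% of Crybb2, 28.4% of Crygs, 27.6% of Cryab and 22.3% of Crygd. Crym was the exception, with 10.9% in its top barcode and 36 barcodes needed to reach 50%, against 2 to 5 for every other member. In the aCXCR2 library the top barcode held 8 of 51 Cryaa UMIs, 8 of 33 of Cryba1, 27 of 143 of Crybb2, 7 of 38 of Crygs and 16 of 79 of Crygd. Cryab was spread most widely there, with 17 of 471 UMIs in its top barcode and 56 barcodes needed to reach 50%.

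**Figure D2:**
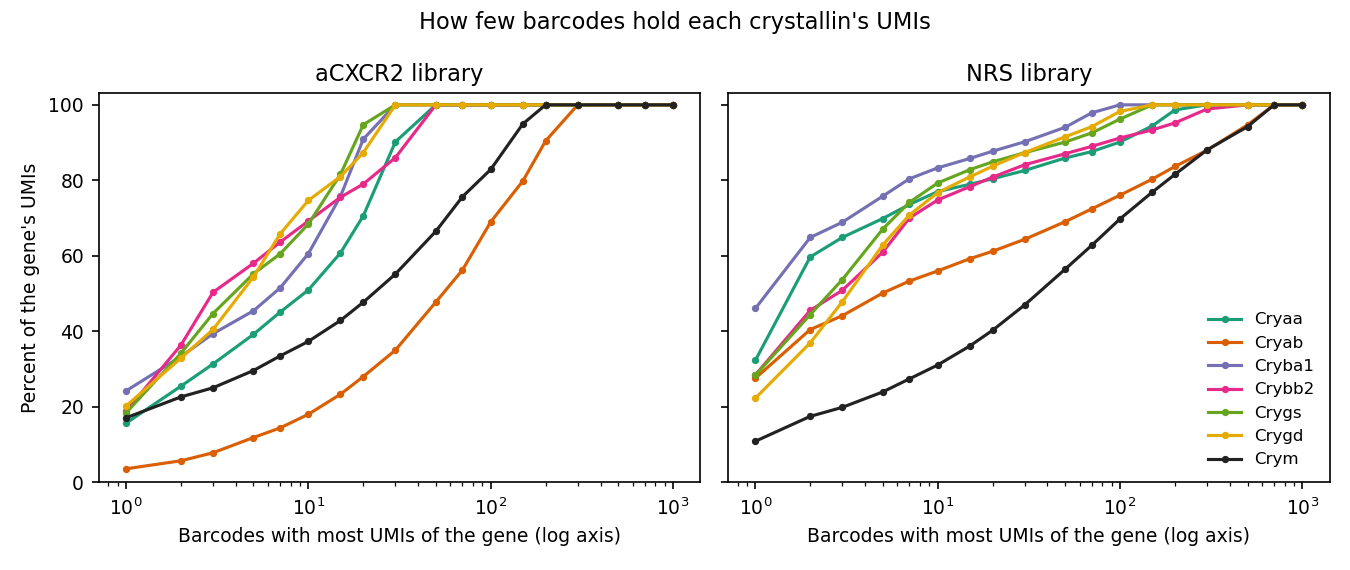
Cumulative percent of each member's UMIs (vertical axis) against the number of kept barcodes taken in descending order of that gene (horizontal log axis), for the aCXCR2 library at left and the NRS library at right. In the NRS library the curves of Cryaa, Cryab, Cryba1, Crybb2, Crygs and Crygd start between 22.3% and 46.1%, and that of Crym starts at 10.9%.

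Barcodes with at least 20 UMIs of the 14 lens crystallins other than Cryab are called crystallin-rich, a threshold chosen after the counts were seen. There were 6 among kept aCXCR2 barcodes (0.124%, exact 95% interval 0.0456 to 0.270%) and 33 among kept NRS barcodes (0.584%, 0.402 to 0.819%). They held 44.3% of the 882 lens crystallin UMIs in kept aCXCR2 cells and 82.9% of the 10481 in kept NRS cells. Without them Cryaa was at 0.379 CPM in the aCXCR2 library and 4.71 CPM in the NRS library, and the log2 ratios of the members were -3.63 for Cryaa, -2.60 for Cryab, -2.56 for Cryba1, -3.68 for Crybb2, -3.43 for Crygs, -2.26 for Crygd and -3.77 for Crym. Every member stayed lower in the aCXCR2 library, but only Cryab and Crym still reached 10 CPM. Without these barcodes, 16.9% of all genes tested were at least 2-fold lower and 3.79% higher. Crym took no part in the crystallin-rich barcodes: it had 0 UMIs in the 6 of the aCXCR2 library, which allows up to 32.2 CPM, and 1 UMI in the 33 of the NRS library.

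Many crystallin-rich barcodes carried RNA of another cell type. Neutrophil markers made up over 1% of UMIs in 4 of the 6 aCXCR2 barcodes and 16 of the 33 NRS barcodes, and rod markers did so in 0 and 4. In 1 of the 6 and 13 of the 33, neither these nor macrophage markers passed 1%. Lens crystallins made up a median of 1.26% of UMIs in the aCXCR2 barcodes and 1.36% in the NRS barcodes, with a maximum of 2.06% in the aCXCR2 library and 55.9% in the NRS library. The doublet caller did not work on these libraries, so droplets with more than 1 cell must be taken to remain. How far doublets account for the mixed barcodes was not tested.

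No cluster qualified as lens-like. Clustering was done without any crystallin gene and clusters were named from markers outside the family, and the best lens score was 0.18, in cluster 15, against the 0.5 required. With crystallin genes left in, 7 aCXCR2 cells (0.145%) and 75 NRS cells (1.33%) formed a cluster whose 10 leading genes were all crystallins. That cluster had a lens score of 0.49 from the other markers and stayed unnamed. Its cells had a median of 40 lens crystallin UMIs in the aCXCR2 library and 11 in the NRS library, and 6 of 7 and 45 of 75 had over 1% neutrophil marker UMIs. Without crystallin genes the same 82 cells spread over 10 clusters, 65 of them in the unnamed clusters 0, 1, 4 and 16. The crystallin-led cluster was therefore not recovered as 1 cluster without the crystallin genes. Its lens markers outside the family summed to 811 CPM over both libraries. The next highest sum in that clustering was 92.3 CPM, in a cluster led by Ttr.

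Barcodes with the most crystallin RNA fell into 2 kinds, told apart after their counts were seen and described without a test. In all, 21 barcodes held at least 100 lens crystallin UMIs, of which 10 passed the cell filter. Crygd was present in 13 of them, 1 in the aCXCR2 library and 12 in the NRS library. It was at 0 in the other 8, all in the NRS library. They held 7066 lens crystallin UMIs, 3251 and 2021 of them in 2 barcodes. Since the 8 were set apart by having no Crygd, that 0 puts no limit on its share in barcodes of this kind. In the 13, Crygd made up 8.66% to 16.5% of lens crystallin UMIs, Cryaa 3.18% to 9.97% and all gamma-crystallins 49.0% to 62.6%. The single aCXCR2 barcode, with 136 lens crystallin UMIs, had 5 of Cryaa, 27 of Crybb2, 7 of Crygs and 16 of Crygd, and its shares of Cryaa, Crygd and all beta- and gamma-crystallins lay within the range of the 12 NRS barcodes. In the 8, Cryaa made up 7.49% to 61.8%, Crybb2 5.57% to 41.7%, and Crygs 1.71% to 27.2%, with Crygs supplying all gamma-crystallin UMIs in 7 of them. The gamma-crystallins Crygb and Crygc were present in 1 of the 8, with 8 and 34 UMIs, against 1326 and 1004 UMIs over the 13.

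**Figure D3:**
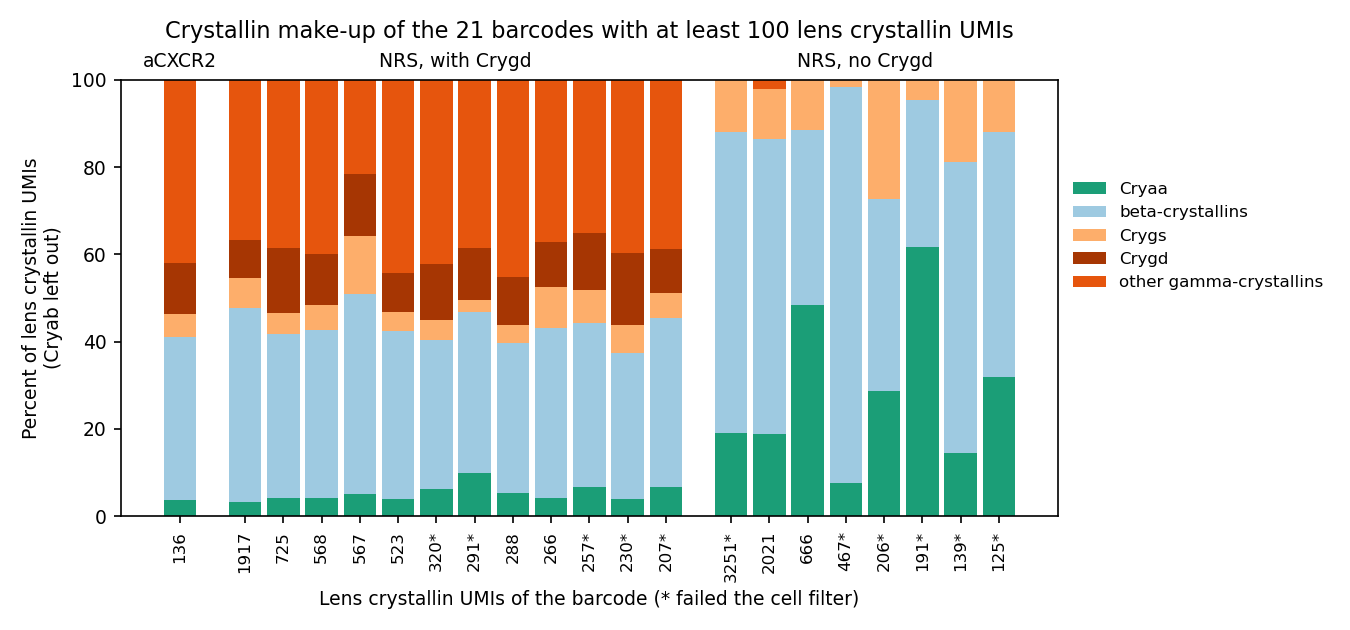
Percent of lens crystallin UMIs (vertical axis) from Cryaa, the beta-crystallins, Crygs, Crygd and other gamma-crystallins in each of the 21 barcodes with at least 100 such UMIs, labelled by that number, with an asterisk where the cell filter was failed. The 13 bars with Crygd, aCXCR2 first and then NRS, look alike, while the 8 NRS bars at right lack it and differ widely in Cryaa.

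The second alpha-crystallin separated the kinds as well. Cryab had 139 UMIs over the 13 barcodes with Crygd, 1 to 60 in each, and 3037 over the 8 without it, 14 to 1581 in each. Set against lens crystallin UMIs, that is 2.21 Cryab UMIs per 100 in the 13 and 43.0 per 100 in the 8. Crym had 0 UMIs in the 13, and 4 in 1 of the 8.

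Other genes divided along the same line. In the 13 barcodes with Crygd, the fibre cell genes Bfsp1 (118 UMIs in 12 barcodes), which encodes a beaded filament protein, Lgsn (79 in 11), lengsin, and Lim2 (41 in 11), a fibre membrane protein, were the most abundant lens markers, and the small heat shock gene Hspb1 had 80 UMIs in 12. The transcription factor genes Pax6, Prox1, Six3 and Sox2 and the lens connexin gene Gja3 were at 0 there, which allows up to 29.95 CPM each. In the 8 barcodes without Crygd, Pax6 had 287 UMIs in 6 barcodes (712 CPM), Six3 107 in 5, Prox1 69 in 6 and Sox2 62 in 6. Grifin, a lens galectin-related gene, had 122 UMIs in 6 of the 8 and Gja3 27 in 6, while Bfsp1 had 56 in 4. The barcodes with Crygd were shallow, with a median of 1192 UMIs, and 8 of 13 passed the filter. Those without it had a median of 17266.5 UMIs and 22.7% mitochondrial UMIs, and 2 of 8 passed. Depth therefore differed between the kinds, and its part in the genes seen was not tested.

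Among barcodes with 20 to 99 lens crystallin UMIs, Crygd was present in 4 of 5 kept aCXCR2 barcodes and 22 of 24 kept NRS barcodes. Of the barcodes that failed the filter, it was present in 0 of 3 in the aCXCR2 library and 4 of 8 in the NRS library. Of those 3 aCXCR2 barcodes, 1 was a shallow copy: it had 1099 UMIs, 29 of them lens crystallins, and the NRS barcode of the same sequence had 137885 UMIs, 3251 of them lens crystallins.

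In rod photoreceptor-like cells, clusters 8 and 14, Crym and Cryab were well above their levels in neutrophil-like cells in both libraries. Crystallin-rich barcodes were left out of both classes for this comparison. In the aCXCR2 library Crym stood at 70.3 CPM in rod-like cells and 5.29 CPM in neutrophil-like cells, 13.3-fold higher (log2 ratio 3.73, 3.34 to 4.12). In the NRS library Crym stood at 164 CPM in rod-like cells and 17.4 CPM in neutrophil-like cells, 9.44-fold higher (log2 ratio 3.24, 2.88 to 3.62). Cryab was 12.3-fold higher in rod-like cells in the aCXCR2 library, at 34.3 CPM against 2.80 CPM, and 4.69-fold higher in the NRS library, at 78.9 CPM against 16.8 CPM. Crybb2, the only other member to reach 10 CPM in this comparison, was lower in NRS rod-like cells than in neutrophil-like cells, at 4.88 against 12.7 CPM. So 2 of 2 members at 10 CPM or more were at least 2-fold higher in aCXCR2 rod-like cells and 2 of 3 in NRS rod-like cells, where such a rise was seen for 64.8% and 55.7% of all genes tested in these libraries. The figures for a 2-fold lower level were 0 of 2 members against 15.4% of genes in the aCXCR2 library and 1 of 3 against 18.4% in the NRS library.

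Scaled to total UMIs, the lens members in NRS rod-like cells did not stand above the level in neutrophil-like cells. Cryaa in that library was at 3.81 CPM in rod-like cells and 4.07 CPM in neutrophil-like cells (log2 ratio -0.10, -1.02 to 0.90). Cryba1 and Crygd were lower in rod-like cells of that library, at 0.357 against 1.90 CPM and 0.476 against 2.44 CPM. The order by share of cells was not the same. Cryaa had a UMI in 4.47% of 627 NRS rod-like and 1.51% of 863 NRS neutrophil-like cells. Crybb2 had one in 4.63% and 4.17%, Crygs in 1.75% and 1.27%, Cryba1 in 0.478% and 0.579%, and Crygd in 0.638% and 0.811%. The 2 pools held 8407238 and 3688202 UMIs in the same order, and the part of depth was not tested. In the aCXCR2 library Crygs was higher in rod-like cells, with a log2 ratio of 3.12 (0.35 to 5.69) that rests on 3 UMIs in rod-like cells and 4 in the larger neutrophil-like pool. Cryaa was at 1.74 CPM in aCXCR2 rod-like cells and 0.350 CPM in neutrophil-like cells, and Crybb2 at 2.32 CPM in rod-like cells and 0.599 CPM in neutrophil-like cells, with ratio intervals that spanned equal levels, as did those of Cryba1 and Crygd.

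**Figure D4:**
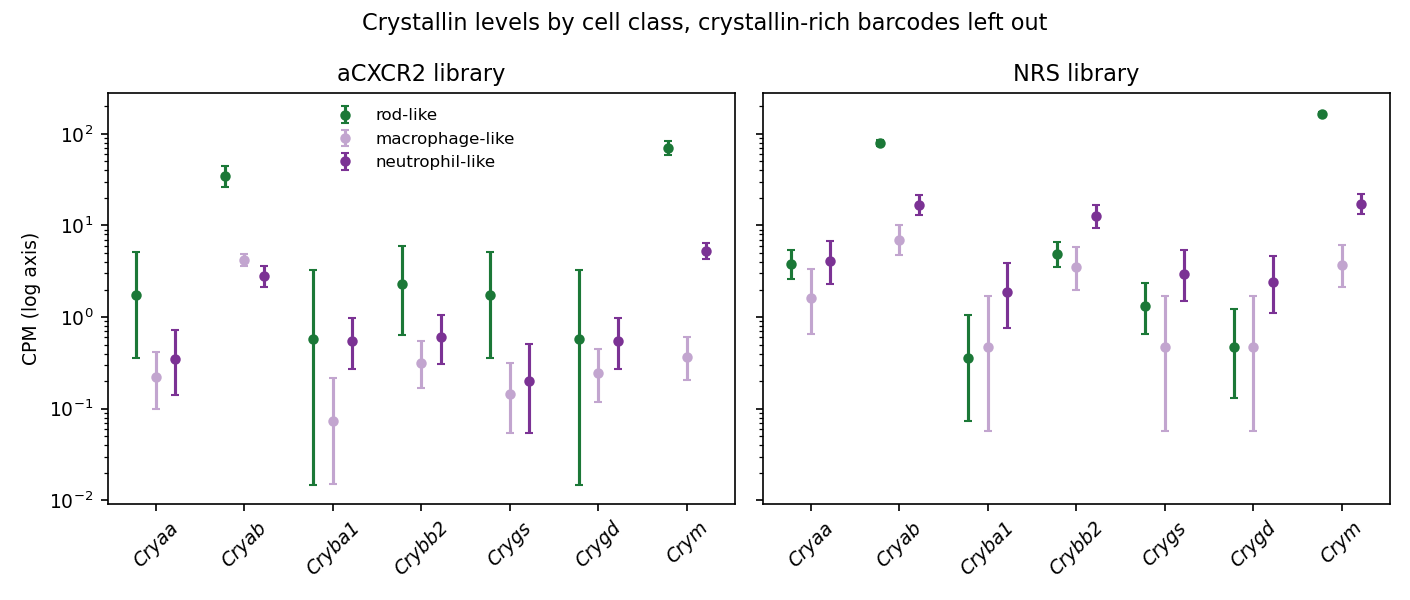
Level of each member in CPM (log axis) in rod-like, macrophage-like and neutrophil-like cells of the aCXCR2 library at left and the NRS library at right, crystallin-rich barcodes left out, with 95% counting intervals. The rod-like points of Cryab and Crym stand clear of the other classes in both libraries, at 34.3 and 70.3 CPM in the aCXCR2 library and 78.9 and 164 CPM in the NRS library.

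Within rod-like cells, including the crystallin-rich barcodes, Crym and Cryab were lower in the aCXCR2 library. Crym was at 70.3 CPM (58.3 to 84.0) in 205 aCXCR2 cells and 163 CPM (154 to 172) in 631 NRS cells, a log2 ratio of -1.21 (-1.49 to -0.94). Cryab was at 34.3 CPM (26.1 to 44.2) in aCXCR2 cells and 80.1 CPM (74.2 to 86.4) in NRS cells, a log2 ratio of -1.23 (-1.63 to -0.84). Crybb2, at 2.32 CPM in aCXCR2 cells and 10.6 CPM in NRS cells, fell below 10 CPM in both without the crystallin-rich barcodes. All 3 members that reached 10 CPM were thus at least 2-fold lower, against 1.32% of the 9312 genes tested in this class, and none was higher, against 3.78%. Rod markers made up a median of 3.996% of UMIs in aCXCR2 rod-like cells and 5.67% in NRS rod-like cells, and mitochondrial genes 3.56% and 5.14% in the same order. Their part in the crystallin difference was not tested. With fewer, larger clusters (resolution 0.5) the log2 ratio of Crym was -0.71, under 2-fold. Thinned to 1000 UMIs per cell, Crym was found in 7.54% of aCXCR2 and 13.7% of NRS rod-like cells, and in 0.466% of aCXCR2 and 2.04% of NRS neutrophil-like cells. Cryab was found in 5.03% of aCXCR2 and 7.32% of NRS rod-like cells, and in 0.326% of aCXCR2 and 1.80% of NRS neutrophil-like cells. The counting intervals of the thinned rod-like shares overlapped between libraries for both genes. Unthinned, the rod-like shares were 25.9% and 41.7% for Crym and 17.6% and 34.9% for Cryab in the same order, at median depths of 5799 and 5692 UMIs.

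Neutrophil-like cells should make no lens crystallin, so their level was taken as the background that free RNA and mixed droplets give. The 14 lens crystallins other than Cryab summed to 16.3 CPM in aCXCR2 neutrophil-like cells and 78.7 CPM in NRS neutrophil-like cells, or 4.89 and 39.3 CPM without crystallin-rich barcodes. Of the members, Crybb2 was at 0.599 CPM in the aCXCR2 cells and 12.7 CPM in the NRS cells, and Cryaa at 0.350 CPM in the aCXCR2 cells and 4.07 CPM in the NRS cells. The 3 members that reached 10 CPM there, Crybb2, Cryab and Crym, were all at least 2-fold lower in the aCXCR2 cells, against 5.74% of genes tested, and none was higher, against 1.58%. With the crystallin-rich barcodes the count was again 3 of 3, and the shares of genes were 5.82% lower and 1.56% higher. After thinning to 1000 UMIs a lens crystallin UMI was found in 0.885% of aCXCR2 and 3.47% of NRS neutrophil-like cells, and unthinned in 3.42% and 11.4% at median depths of 7781 and 4015.5 UMIs. The background was therefore higher in the NRS library than in the aCXCR2 library, which is also the order of the members over all cells.

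Per UMI, macrophage-like cells carried little of the members. Cryaa, Cryba1, Crybb2, Crygs and Crygd lay at 0.0732 to 0.317 CPM in aCXCR2 and 0.468 to 3.51 CPM in NRS macrophage-like cells without crystallin-rich barcodes. Crym was at 0.366 CPM in the aCXCR2 cells and 3.74 CPM in the NRS cells, and Cryab at 4.25 CPM in the aCXCR2 cells and 7.02 CPM in the NRS cells. The lens crystallin sum there was 5.88 CPM in the aCXCR2 cells and 22.7 CPM in the NRS cells, most of it Cryba4, which alone gave 3.88 and 12.4 CPM in the same order. In neutrophil-like cells Cryba4 was at 0.549 CPM in the aCXCR2 library and 1.63 CPM in the NRS library. Over all genes at 10 CPM or more, 4.07% were at least 2-fold lower in aCXCR2 macrophage-like cells and 3.01% higher, and no member reached that level. NRS macrophage-like cells were deep, with a median of 25948 UMIs against 4013 in NRS neutrophil-like cells. Unthinned, Crybb2 had a UMI in 6.94% and 4.17% of these cells, Cryab in 12.1% and 5.91%, and Crym in 6.94% and 5.56%. Thinned to 1000 UMIs, the shares were 0% and 1.32% for Crybb2, 1.17% and 1.56% for Cryab, and 0.585% and 2.04% for Crym.

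The make-up of the lens crystallin RNA was compared between classes of the NRS library, with crystallin-rich barcodes left out unless named. Cryaa made up 25.3% (22.1 to 28.7%) of lens crystallin UMIs in failed barcodes and 19.4% (13.7 to 26.3%) in rod-like cells. It made up 10.3% (5.91 to 16.5%) in neutrophil-like cells, 11.9% (9.96 to 14.2%) in clusters 0, 1, 4 and 16, and 11.0% (10.4 to 11.7%) in the crystallin-rich barcodes that passed the filter. The failed barcodes lay above the last 3 sets beyond counting error, while the interval of rod-like cells overlapped those of neutrophil-like cells and of clusters 0, 1, 4 and 16. Of the 957 Cryaa UMIs in those crystallin-rich barcodes, 1 barcode held 381 and another 323, both without Crygd. The crystallin-rich share therefore mixes the kinds described above, and its interval does not cover the spread between barcodes. Crygd made up 2.46% (1.44 to 3.90%) in failed barcodes, 2.42% (0.664 to 6.09%) in rod-like cells, 6.21% (2.88 to 11.5%) in neutrophil-like cells, 6.13% (4.70 to 7.83%) in clusters 0, 1, 4 and 16, and 7.39% (6.85 to 7.96%) in crystallin-rich barcodes. Its interval in rod-like cells overlapped those of neutrophil-like cells and of clusters 0, 1, 4 and 16, and that in failed barcodes lay below that of clusters 0, 1, 4 and 16. Crybb2 varied from 21.8% to 32.4% over these 5 sets. In the aCXCR2 library Cryaa made up 25.5% (14.7 to 39.0%) of 55 UMIs in failed barcodes, 7.14% (2.92 to 14.2%) of 98 in neutrophil-like cells and 4.35% (0.906 to 12.2%) of 69 in clusters 0, 1, 4 and 16, so that failed barcodes stood above both there as well. The failed aCXCR2 barcodes include shallow copies of NRS barcodes, and their part in that share was not tested.

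Cluster 15 had the highest Cryab and Crym levels of any cluster in both libraries. It is unnamed, holds 27 aCXCR2 and 96 NRS cells, and is led by Ttr, Ptgds and Clu, with markers of pigment epithelium or ciliary body and of Muller glia scoring 2.21 and 2.03. Cryab was at 498 CPM (392 to 623) in its aCXCR2 cells and 2439 CPM (2326 to 2557) in its NRS cells, and had a UMI in 18 of 27 and 71 of 96. Crym was at 210 CPM (143 to 296) in its aCXCR2 cells and 1734 CPM (1639 to 1834) in its NRS cells, and had a UMI in 6 of 27 and 59 of 96. Without the 3 aCXCR2 cells that were shallow copies, Cryab was at 421 CPM and Crym at 194 CPM in the aCXCR2 cells. The members parted within the cluster: 4 crystallin-rich NRS barcodes held 1216 of its 1723 Cryab UMIs and none of its 1225 Crym UMIs. Cryab did not need lens crystallins beside it, since 17 of 25 aCXCR2 cells and 55 of 77 NRS cells without any lens crystallin UMI still had Cryab. The lens members in cluster 15 came from those 4 barcodes. The one with 4617 UMIs held 381 of 732 Cryaa, 240 of 256 Cryba1, 771 of 1066 Crybb2 and 233 of 344 Crygs UMIs, and the one with 154168 UMIs held 323 of Cryaa. Without the 4, the other 92 NRS cells had 3 UMIs of Cryaa, 7 of Crybb2, 1 of Crygs and none of Cryba1 or Crygd, Cryab was at 929 CPM (849.8 to 1013) and Crym at 2244 CPM (2121 to 2374). No aCXCR2 cell of the cluster was crystallin-rich, and Cryab at 498 CPM and Crym at 210 CPM remained below those NRS levels.

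**Figure D5:**
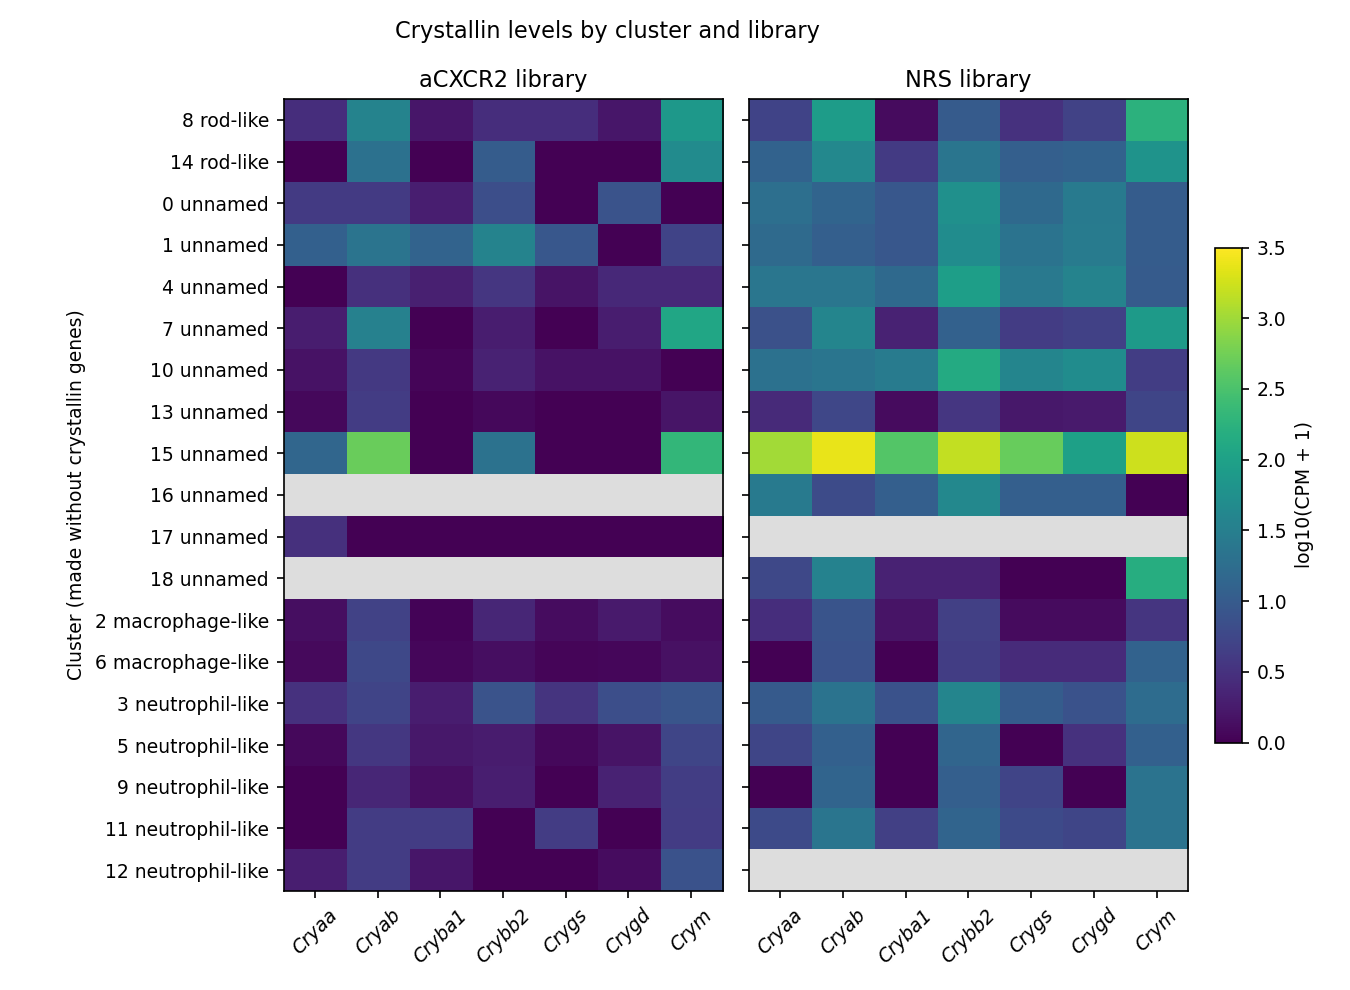
Level of each member as log10(CPM + 1), by colour, in each cluster (vertical axis, made without crystallin genes) of the aCXCR2 library at left and the NRS library at right; grey marks fewer than 20 cells. Cluster 15 is brightest for Cryab and Crym in both libraries, at 498 and 210 CPM in the aCXCR2 library and 2439 and 1734 CPM in the NRS library.

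Outside cluster 15, Crym followed photoreceptor clusters. Cluster 18, with cone and rod markers, had Crym at 151 CPM in 26 NRS cells and 2 UMIs in 3 aCXCR2 cells. Cluster 7, unnamed because it held both rod and neutrophil markers, had Crym at 119 CPM in 127 aCXCR2 cells and 79.1 CPM in 566 NRS cells. The higher aCXCR2 level rested on 1 barcode with 71 Crym UMIs. The other 126 cells gave 57.4 CPM (43.7 to 74.1), with an interval that overlapped the 70.1 to 89.0 CPM of the NRS cells. No barcode was taken out of the NRS cells for this comparison. Of the 127 aCXCR2 cells, 38 were shallow copies, and without them Crym was at 118 CPM and Cryab at 32.8 CPM, against 119 and 33.8 CPM with them. Cryab in cluster 7 of the NRS library was at 37.8 CPM.

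Barcodes that failed the cell filter held about as many Cryaa UMIs as the kept cells did. Cryaa had 50 UMIs in the 725 failed aCXCR2 barcodes, shallow copies included, and 1229 in the 1659 failed NRS barcodes, against 51 and 1179 in kept cells. Crybb2 had 39 UMIs in the failed aCXCR2 barcodes and 1824 in the failed NRS barcodes, and Crygd 6 and 212. Crym was at 137 CPM in failed aCXCR2 barcodes and 222 CPM in failed NRS barcodes, and Cryab at 70.9 and 254 CPM in the same order. Nearly all of these barcodes, 719 of 725 and 1653 of 1659, failed on mitochondrial share. A single failed NRS barcode, with 137885 UMIs, held 620 Cryaa, 1581 Cryab and 1064 Crybb2 UMIs. Without crystallin-rich barcodes, Cryaa had 14 UMIs in failed aCXCR2 and 175 in failed NRS barcodes, against 31 and 222 in kept cells. Cryab was then at 48.8 and 116 CPM in failed barcodes, and Crym at 138 and 227 CPM, in the same order.

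Across 34 pools of cluster and library with at least 20 cells, the genes most like each member were other crystallins for the lens members only. These pools share libraries and free RNA, and the correlations are descriptions over 11649 genes. The pools also keep the crystallin-rich barcodes. Cryba1 was at 362 CPM in NRS cluster 15, where 1 barcode held 240 of its 256 UMIs, and at no more than 27.2 CPM in any other pool. How far the correlations among lens members rest on such barcodes was not tested. Cryaa was nearest to Cryba2 (Pearson r 0.97 on log2(CPM + 10)) and then to Bfsp1 (0.96), Cryba1, Crygs and Crybb1. Cryba1, Crybb2 and Crygs were nearest to Cryba2 or Crygs, at 0.95 to 0.99. Crygd was nearest to its gene cluster neighbours Crygb and Crygc, both at 0.98, ahead of Crybb2 at 0.91. Cryab, by contrast, was nearest to Dkk3 (0.95), Fxyd1 (0.95) and Sox9 (0.95), with no crystallin among its first 5. Crym was nearest to Sept4 (0.93), Pfn2 (0.93), Mxra7, Lrig1 and Clip3, again with no crystallin.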

How the data were processed

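Each group was 1 library of the 10x 3' kit, and both were analysed as deposited: the deposited values are raw UMI counts of each gene in each barcode. Cell Ranger and Seurat, and only a human build, appear in the submitters' processing notes, while the deposited gene IDs are mouse. The matrix header gives software version 3.0.0, and the sources used here do not state how barcodes were called. The members, lists and thresholds were chosen with earlier results of these data known.

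UMIs were added up within a library and class and divided by that pool's total. Intervals at 95% are exact Poisson for CPM, Clopper-Pearson for shares and conditional binomial for ratios, and a count of 0 allows up to 3. Genes called changed were at least 2-fold apart where 1 library reached 10 CPM. Cells were clustered without crystallin genes (2000 variable genes, 30 principal components, 15 neighbours, Leiden at resolution 1, leidenalg 0.10.2) and named from marker lists when the mean log2 ratio to the other clusters, with a prior of 100 CPM, was at least 0.5, no other class had more markers among the 10 leading genes and the own markers summed to at least 2 times those of any other class. This scoring rule was set after seeing the data. Since no cluster was lens-like, the planned account of variation among lens cells was made over crystallin-rich barcodes. Named genes are the 7 members, fixed lists and the 5 genes most like each member, taken from genes with at least 200 UMIs, with barcode-level and cluster examples chosen after their values were seen. Scrublet in scanpy 1.11.5 called 5 of 4826 aCXCR2 and 0 of 5655 NRS cells, so it has not worked. An alternative dropped the 186 and 256 highest scores, the numbers expected from loading. edgeR 4.0.16 (R 4.3.3) gave the TMM factors, and pandas 2.3.3, scipy 1.17.1, numpy 2.4.6 and Python 3.11.15 did the rest. In simulated counts of 8167 genes for the all-cell comparison, the 2-fold rule found 66 of 66 genes made 3-fold different and 0 of 67 made 1.5-fold different. The simulated library sums carried Poisson error only. UMIs of the lens members sat in few barcodes, so the simulation cannot show how the rule performs for them. Promoters are from RefSeq, with 5 of 7 members matched.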

Additional observations from a re-analysis of the deposited data

Results flagged for a closer look

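Barcodes that failed the cell filter, which the comparisons between libraries do not use, held lens crystallin RNA well above the limit that a count of 0 allows. They held 157 lens crystallin UMIs in the aCXCR2 library, 102 of them in 3 crystallin-rich barcodes, and 6730 in the NRS library, 6038 of them in 19. Kept cells held 882 in the aCXCR2 library and 10481 in the NRS library. Of the 8 barcodes without Crygd and with at least 100 lens crystallin UMIs, 6 failed the filter, so a filter on mitochondrial share removes most of that kind.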

How the results depend on the processing

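None of the results that were rerun under alternatives reversed. The Crym levels in cluster 7 were not among them, and there the higher aCXCR2 level rested on 1 barcode, as given above. In all kept cells the log2 ratios under TMM factors were -4.79 (Cryaa), -2.91 (Cryab), -4.24 (Cryba1), -4.50 (Crybb2), -4.69 (Crygs), -3.49 (Crygd) and -3.23 (Crym), and under median of ratios factors -4.73, -2.85, -4.18, -4.44, -4.63, -3.43 and -3.17 in the same order. Without crystallin-rich barcodes they were -3.63, -2.60, -2.56, -3.68, -3.43 and -2.26 for the first 6. As means of cell CPM they were -4.59 for Cryaa, -2.36 for Cryab and -3.08 for Crym. The strict cell filter gave -2.74 for Cryab, -5.36 for Crybb2 and -2.80 for Crym, and no filter gave -3.59 for Cryab and -3.21 for Crym. Without barcode sequences found in both libraries Cryab was at -2.93. The number of members at least 2-fold lower was 3 with a minimum of 50 CPM and 2 without crystallin-rich barcodes, since the rest fell under the minimum. Taking as lens cells the barcodes with at least 5 UMIs of lens markers gave 0.230% of NRS cells. Crym in rod-like cells was at -0.71 at resolution 0.5. The lens crystallin sum in neutrophil-like cells was 2.63 CPM in the aCXCR2 library and 29.8 CPM in the NRS library without the top 1% of cells, 4.89 and 39.3 CPM without crystallin-rich barcodes, and 30.4 and 114 CPM as a mean over cells. The share of neutrophil-like cells with such a UMI was 0.509% in the aCXCR2 library and 2.08% in the NRS library when thinned to 500 UMIs, and 3.42% and 11.4% unthinned. Crystallin-rich NRS barcodes numbered 55 at 10 or more UMIs and 19 at 50 or more. Beyond the effect of a stricter minimum or fewer barcodes, the cause of these shifts was not tested. No paired analysis was possible because each group was 1 library, and for the same reason no library could be left out. Depth limits the aCXCR2 values: in its rod-like cells every member except Crym rests on 59 UMIs or fewer, and in its cluster 15 the lens members have 0 to 3 UMIs each.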
